A study of Mus musculus with 9 samples.

Results

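Matricellular proteins are secreted into the matrix around cells, where they signal through receptors and bind growth factors more than they bear load. Of 10 genes of this class chosen by name, all 10 were among the 13539 genes listed for mouse hearts: Postn (periostin), Cilp, Tnc (tenascin-C), the thrombospondins Thbs1 to Thbs4 and Comp, and the CCN genes Ctgf and Cyr61, today named Ccn2 and Ccn1. In the healthy adult heart most of these proteins are scarce. After injury or overload they are made mainly by fibroblasts that have switched to matrix production, and periostin is the usual marker of that state. Periostin and tenascin-C bind integrins and collagen, Cilp binds TGF-β, and thrombospondin-1 releases TGF-β from its latent form. Ctgf and Cyr61 are known targets of TGF-β and of YAP, the coactivator of TEAD factors that responds to stretch.

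RNA from heart tissue of 12-week-old male C57BL/6JOlaHsd mice was sequenced, with 3 libraries in each of 3 groups. OMA1 knockout and wild-type mice received isoproterenol, an agonist of β-adrenergic receptors that drives heart rate and contraction, at 10 mg/kg/day from a minipump over 7 days. A further group of OMA1 knockout mice had no treatment, so drug and pump cannot be told apart. OMA1 is a protease in the inner membrane of mitochondria that becomes active under stress, and the sources used here do not describe the knockout allele. No wild-type hearts without treatment were analysed here, so no test asked whether genotype altered the response to the drug. The labels give no animal numbers, and p-values therefore measure the spread between these samples, which may be technical.

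The libraries held 6933879 to 12187701 reads. Oma1 stood at 5.73 to 6.74 normalized counts in treated knockout hearts, 17.7 to 22.0 in the treated wild type and 6.52 to 9.10 in untreated knockout hearts, so every knockout library lay below every wild-type library. All 8 ventricular myocyte markers were listed, and their summed level was 41324 to 43882 in treated knockout, 37919 to 44395 in treated wild-type and 46050 to 49556 in untreated knockout hearts. The atrial markers other than Nppa split the libraries by treatment. Nppa in treated wild-type replicate 3 (842) lay within the untreated knockout range of 740 to 1616. Myl7, the atrial myosin light chain, stood at 0 to 0.417 in treated knockout hearts and 0.192 to 0.275 in the treated wild type, against 131 to 279 in untreated knockout hearts, and Bmp10 was at 0 in all 6 treated libraries. Treated and untreated hearts therefore also differed in atrial transcripts. One library stood apart for the genes described here: treated wild-type replicate 3 held the highest level of every one of the 10 genes within its group, and each result that rests on it is given with and without it.

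The promoter is shown for 3 genes that moved differently between the groups: Postn and Thbs4, which rose with treatment, and Cyr61, which fell. Each line holds the 250 bases upstream of the RefSeq start on GRCm38.p6, 5′ to 3′ on the strand of the gene, with capitals for matches to TATAAA, the TATA box, or to GGAATG, the core recognised by TEAD factors, on either strand.

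Postn: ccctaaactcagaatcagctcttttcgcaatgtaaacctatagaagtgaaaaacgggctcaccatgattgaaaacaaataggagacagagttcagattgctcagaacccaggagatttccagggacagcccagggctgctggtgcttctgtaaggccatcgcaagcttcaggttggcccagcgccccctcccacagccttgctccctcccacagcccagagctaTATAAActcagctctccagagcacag

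Thbs4: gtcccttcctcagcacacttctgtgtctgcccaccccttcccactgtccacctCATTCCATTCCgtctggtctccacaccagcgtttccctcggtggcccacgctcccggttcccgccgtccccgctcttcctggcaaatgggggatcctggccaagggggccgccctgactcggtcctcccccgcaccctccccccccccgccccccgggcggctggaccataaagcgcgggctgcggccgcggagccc

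Cyr61: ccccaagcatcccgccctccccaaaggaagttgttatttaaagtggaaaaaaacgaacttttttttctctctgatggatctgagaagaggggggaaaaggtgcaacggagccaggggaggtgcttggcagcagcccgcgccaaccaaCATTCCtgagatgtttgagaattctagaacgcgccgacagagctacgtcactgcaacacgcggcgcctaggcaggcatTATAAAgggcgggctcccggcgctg

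The Postn window lies at chr3:54360857-54361106 on the plus strand and holds 1 TATA box. A further RefSeq window of Postn, at chr3:54359017-54359266, is not shown and matched none of the motifs searched. The Thbs4 window lies at chr13:92794819-92795068 on the minus strand and holds 2 TEAD matches that share a base. The Cyr61 window lies at chr3:145649986-145650235 on the minus strand and holds 1 TEAD match and 1 TATA box. Of 32536 RefSeq promoter windows of this length, 12.57% hold GGAATG and 12.31% hold TATAAA on either strand, so each match alone is common. Windows were at hand for 7 of the 10 genes, 9 windows in all. Tnc and Thbs2 also had a match to TATAAA, that of Thbs2 on the strand opposite to the gene. Cilp and Thbs3 matched none of the motifs searched, though Cilp has tatataag near its start, which the exact letters TATAAA do not cover. The others searched were TGANTCA, the AP-1 site (6.728% of windows), TGACGTCA, the cyclic AMP response element (1.555%), and the CArG box bound by SRF (1.478%), and none of the windows of the 7 genes held one. A match is a description of the letters and not a site that a factor was shown to bind.

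In the annotation of the same build, GENCODE M21 on GRCm38, Postn (ENSMUSG00000027750) spans chr3:54361109-54391037, Cilp (ENSMUSG00000042254) chr9:65265180-65280605 and Tnc (ENSMUSG00000028364) chr4:63959785-64047015. Thbs1 (ENSMUSG00000040152) lies at chr2:118111876-118127133, Thbs2 (ENSMUSG00000023885) at chr17:14665500-14694235 and Thbs3 (ENSMUSG00000028047) at chr3:89215180-89226837. Thbs4 (ENSMUSG00000021702) lies at chr13:92751590-92794818 and Comp (ENSMUSG00000031849) at chr8:70373558-70382066. Ctgf (ENSMUSG00000019997) lies at chr10:24595442-24598683 and Cyr61 (ENSMUSG00000028195) at chr3:145646976-145649981. Values are sums over the exons of a gene. Exons of 4 of the genes overlap a gene on the opposite strand, and without stated strand counting those reads cannot be told apart. For Thbs3 the overlap with Mtx1 covers 318 of its 4823 exon bases, and Mtx1 stood at 11.2 to 17.5 normalized counts in every library. For Ctgf the overlap with Gm15270 covers 665 of 2861 bases, and that gene stayed at or below 1.11. The overlaps of Thbs1 with Gm29233 and of Tnc with 8030451A03Rik cover 208 and 176 bases.

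Divided by transcript length, periostin was the most abundant of the 10 genes in treated knockout hearts, with 73.4 ± 11.7 normalized counts per kb (SD, n = 3). It was followed by Ctgf at 25.8 ± 3.56, Cyr61 at 12.8 ± 2.23 and Cilp at 9.21 ± 1.31 per kb, and the libraries of these 4 genes did not overlap with those of the next gene in the order. Thbs3 at 4.59 ± 0.47, Thbs4 at 3.76 ± 0.42, Thbs2 at 3.72 ± 0.57 and Thbs1 at 2.97 ± 0.84 per kb formed a middle range, in which Thbs4, Thbs2 and Thbs1 overlapped with their neighbours. Tnc at 1.18 ± 0.30 and Comp at 0.943 ± 0.136 per kb were lowest and overlapped.

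In treated wild-type hearts periostin also had the highest mean, 157 ± 146 per kb, and Tnc the lowest, 2.01 ± 1.80 per kb. The place of Tnc below Comp rests on replicate 3, where Tnc stood at 4.07 and Comp at 9.99 per kb. In replicate 1 Comp was the lower, at 0.607 per kb against 0.748 for Tnc. The libraries of every gene overlapped with those of its neighbour in the order, but this sets different libraries against each other. In replicate 1 Postn stood at 61.7 and Ctgf at 20.6 per kb, and in replicate 3 at 325 and 73.2. In untreated knockout hearts the order was different at the top. Cyr61 had the highest mean with 22.5 ± 1.0 per kb, ahead of Ctgf at 19.8 ± 2.37 and Postn at 12.3 ± 1.60. These 3 genes did not overlap, but the lowest Cyr61 library (21.4) and the highest Ctgf library (21.2) nearly met. The order of Cyr61 and Ctgf also rests on the lengths used, since before division the mean was 49.4 for Ctgf and 45.4 for Cyr61. Thbs2 followed at 2.98 ± 0.38 per kb. Cilp at 1.74, Thbs1 at 1.63, Thbs3 at 1.59 and Comp at 1.51 per kb came next, with Thbs4 after them, and each overlapped with its neighbour in this run. Tnc was far below at 0.174 ± 0.033.

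**Figure D1:**
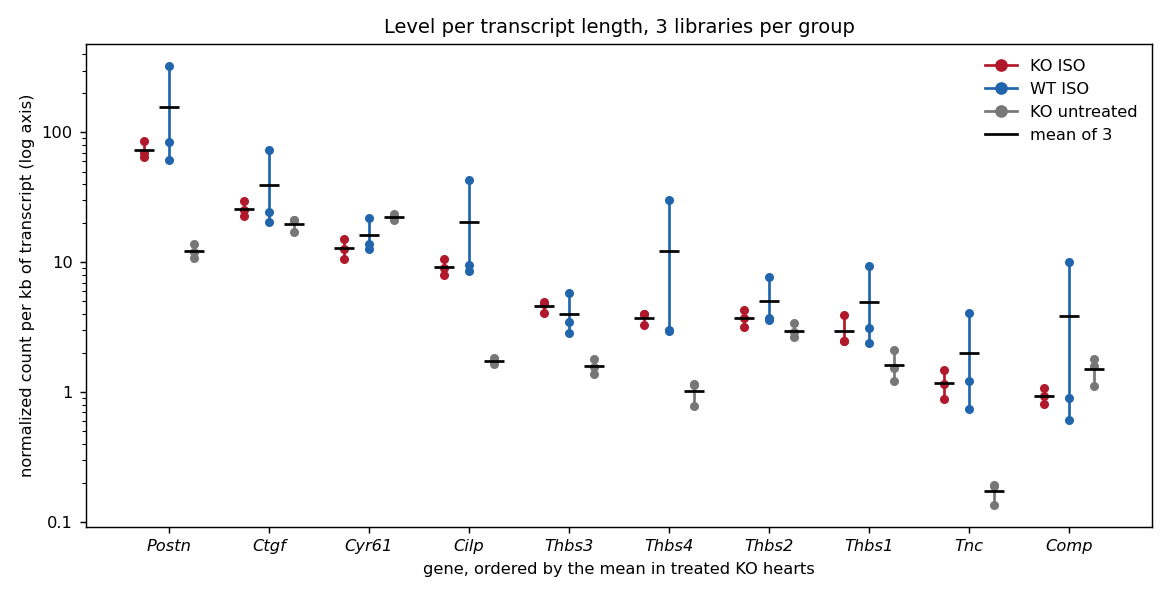
Normalized counts per kb of transcript (log axis) for each of the 10 genes, ordered by the mean in treated knockout hearts, with 1 point per library, a line over the range of each group of 3 and a bar at the mean. Periostin is highest in both treated groups, while Cyr61 (22.5 per kb) and Ctgf (19.8 per kb) lie above it in untreated knockout hearts.

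The first comparison sets knockout against wild-type hearts under the same adrenergic load. None of the 8 genes that reached the minimum for testing (10 or more normalized counts in 3 or more of the 9 libraries) differed between treated knockout and treated wild-type hearts by limma, over a background of 27.8% of 8543 tested genes. None of the 8 had an unadjusted p under 0.05 in limma. With edgeR on the recovered reads 0 were called and 3 had an unadjusted p under 0.05, and with DESeq2 0 were called, with no adjusted p for Thbs4. The log2 differences of the 8 ran from -0.77 to 0.23. In all 10 genes the libraries of the groups overlapped. Of the genes tested at the minimum of 10, a set without Tnc and Comp, 20% were higher and 23.6% lower without overlap. With the minimum lowered to 1 all 10 genes were tested and none was called, over a background of 17.4%, and their median was -0.45, against 0.02 over all tested genes. That median followed treated wild-type replicate 3.

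Postn stood at 206, 278 and 222 normalized counts in treated knockout hearts, against 198, 270 and 1043 in treated wild-type hearts. Both groups overlap, and 1 wild-type library is several times higher than the other 5 treated ones. The log2 difference was -0.71 ± 0.41 (limma, adjusted p = 0.21). Without replicate 3 it was 0.02 ± 0.14 with a 95% interval of -0.28 to 0.31, and without wild-type replicate 1 it was -1.18 (adjusted p = 0.040). Cilp, which encodes a protein first described in cartilage and made by cardiac fibroblasts, showed the same layout. It stood at 37.6, 44.0 and 33.2 in treated knockout hearts, against 35.7, 39.7 and 178 in treated wild-type hearts. Its log2 difference of -0.72 ± 0.41 (adjusted p = 0.20) became 0.01 (95% interval -0.23 to 0.26) without replicate 3. Tnc, which lay below the minimum of 10, stood at 6.32, 10.6 and 8.27 in treated knockout hearts, against 5.32, 8.65 and 28.9 in treated wild-type hearts. With the lower minimum its log2 difference was -0.40 ± 0.39 (adjusted p = 0.52), and 0.24 ± 0.22 without replicate 3.

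The thrombospondins are secreted as trimers (Thbs1 and Thbs2) or pentamers (Thbs3, Thbs4 and Comp). Thbs4, which is raised in overloaded heart muscle and acts in the endoplasmic reticulum as well as in the matrix, stood at 10.5, 12.7 and 12.9 in treated knockout hearts, against 9.63, 9.45 and 97.4 in treated wild-type hearts. Every knockout library lies above the 2 lower wild-type libraries and far below the third. The log2 difference was -0.77 ± 0.60 (limma, adjusted p = 0.35), and 0.30 ± 0.18 without replicate 3 (adjusted p = 0.23, 95% interval -0.09 to 0.69). Comp, the thrombospondin of cartilage and tendon, stood at 2.28, 2.61 and 1.95 in treated knockout hearts, against 1.47, 2.19 and 24.1 in treated wild-type hearts, which rest on 16 to 251 reads. With the lower minimum its log2 difference was -0.83 ± 0.59 (adjusted p = 0.35), and 0.22 ± 0.21 without replicate 3. Thbs1 stood at 14.5, 23.0 and 14.5 in treated knockout hearts, against 14.0, 18.3 and 54.7 in treated wild-type hearts. Here too the groups overlap outside the third wild-type library. Its log2 difference was -0.49 ± 0.36, and 0.07 (95% interval -0.38 to 0.53) without replicate 3. Thbs2, an inhibitor of vessel growth, stood at 25.4, 18.7 and 21.8 in treated knockout hearts, against 22.1, 21.3 and 45.8 in treated wild-type hearts, and its log2 difference of -0.34 ± 0.22 became 0.005 (95% interval -0.27 to 0.28) without replicate 3.

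Thbs3 was the exception in direction. It stood at 13.0, 15.8 and 15.2 in treated knockout hearts, against 9.08, 11.1 and 18.5 in treated wild-type hearts, a log2 difference of 0.23 ± 0.20 (limma, adjusted p = 0.41). All 3 knockout libraries exceed wild-type replicates 1 and 2 and fall short of replicate 3. Without replicate 3 it was the one gene of the 10 that passed, at 0.50 ± 0.16 (adjusted p = 0.029, background 28.1% of 8475 genes tested), a call that rests on the choice to leave that library out. Both CCN genes overlapped as well. Ctgf stood at 56.4, 73.9 and 62.7 in treated knockout hearts, against 51.4, 60.8 and 182 in treated wild-type hearts (log2 difference -0.37 ± 0.32, and 0.19 with a 95% interval of -0.07 to 0.45 without replicate 3). Cyr61 stood at 25.5, 30.5 and 21.6 in treated knockout hearts, against 25.4, 28.0 and 44.2 in treated wild-type hearts (log2 difference -0.29 ± 0.17, and -0.06 with a 95% interval of -0.31 to 0.20 without it).

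**Figure D2:**
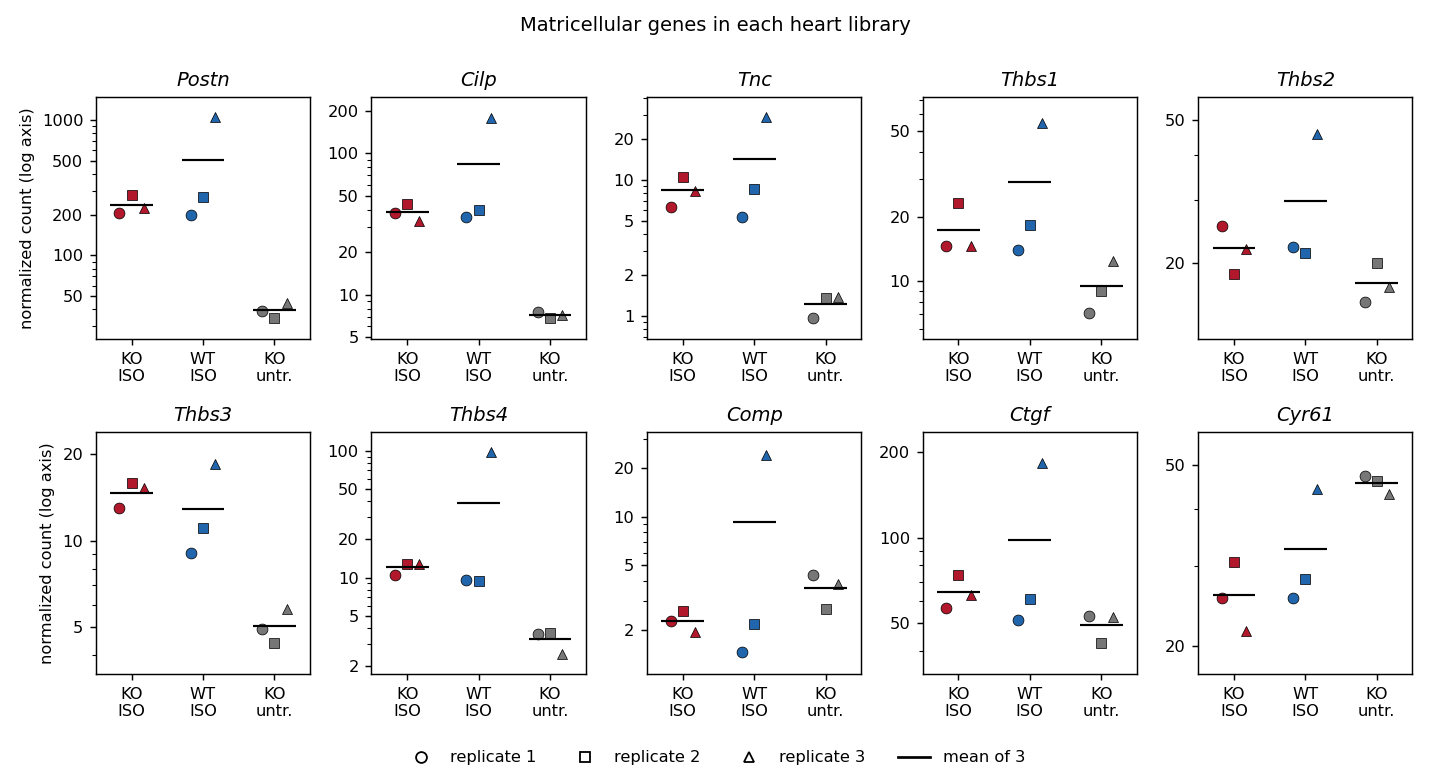
Normalized count of each of the 10 genes in every library (log axes, which differ between panels), with the replicate number as the marker shape and a bar at the mean of 3, for treated knockout (KO ISO), treated wild-type (WT ISO) and untreated knockout (KO untr.) hearts. Treated wild-type replicate 3, the blue triangle, is the highest of its group in all 10 panels, at 1043 for Postn and 97.4 for Thbs4.

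The departure of treated wild-type replicate 3 was large against the rest of the transcriptome. Of the 8 tested genes of the class, 6 were at least 2-fold above the mean of replicates 1 and 2 on the log2(value + 1) scale, where 43 of all 8543 tested genes (0.503%) were, and so were Tnc and Comp, which were not tested at that minimum. All 8, and Tnc and Comp, were highest in that library, as were 31.2% of all tested genes. Ranked by that ratio, Thbs4 (9.33-fold) came second of all tested genes, Cilp (4.62-fold) sixth and Postn (4.45-fold) eighth. Thbs1 (3.24-fold) ranked 12, Ctgf (3.21-fold) 14, Thbs2 (2.06-fold) 39, Thbs3 (1.76-fold) 68 and Cyr61 (1.63-fold) 91. Comp (8.88-fold) and Tnc (3.75-fold) were not among the tested genes. These are values of 1 library, with no test.

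The genes with the highest ratios in that library included other matrix and wall-stress transcripts. Nppa, the atrial natriuretic peptide, stood at 842 in replicate 3, against 51.8 and 86.0 in replicates 1 and 2. Myh7, a cardiac myosin heavy chain gene that ranked 5, stood at 301, against 64.3 and 57.5. Lox, the collagen cross-linking oxidase, stood at 91.7, against 7.15 and 13.0, and Ltbp2, a protein of elastic fibres, at 100.4, against 10.8 and 11.6. Cthrc1, a marker of matrix-producing fibroblasts, stood at 20.0, against 0.825 and 0.807, and Fmod (fibromodulin), a tendon and valve proteoglycan, at 20.1, against 2.29 and 1.84. The general fibroblast markers went both ways. Mfap5 stood at 101.7 in replicate 3, against 41.4 and 49.6, and Mmp2 at 138.8, against 82.3 and 79.9. Pdgfra stood at 48.9, against 41.8 and 41.7, whereas the abundant Gsn stood at 586, against 782 and 763. The sum over all 13 genes of that list, which Gsn weighs on most, was 1882, against 1804 and 1811. The summed list of activated fibroblasts (10 of 11 listed) stood at 511, against 361 and 321. The tendon, cartilage and valve list, of which 5 of 13 genes were listed, summed to 48.2, against 18.2 and 15.9. Of the other atrial markers Dkk3 stood at 20.6, against 5.32 and 6.00, Stard10 at 6.34, against 9.35 and 9.22, and Myl4 at 1.06, against 1.38 and 1.73. Myl7 was at 0.192 there and Bmp10 and Sln at 0. The part of any of these in the 10 genes' levels was not tested.

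**Figure D3:**
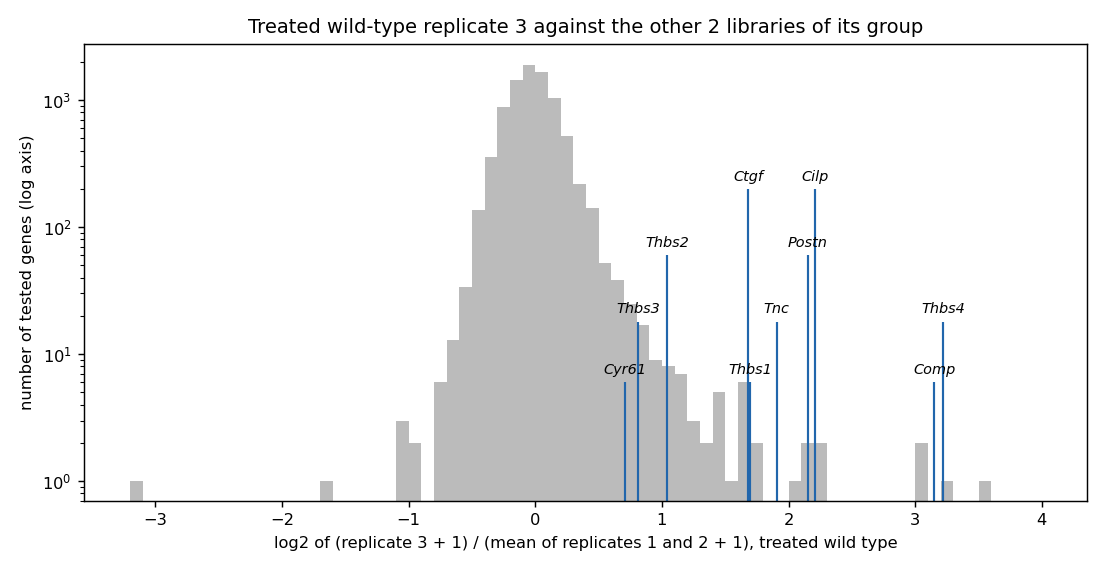
Histogram of the log2 ratio of treated wild-type replicate 3 to the mean of replicates 1 and 2 (pseudocount 1) over the 8543 tested genes, with counts on a log axis and blue lines at the 10 genes described here (line heights only separate the labels). All 10 lie to the right of 0, with Thbs4 and Comp farthest out.

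The second comparison asks what isoproterenol with its pump did to hearts of 1 genotype, the knockout. Periostin, Cilp, Thbs3 and Thbs4 rose and Cyr61 fell in treated against untreated knockout hearts, which makes 5 of the 8 tested genes over a background of 51.4% of tested genes called. By the ratio of means Postn was 5.99-fold and Cilp 5.29-fold higher. Cilp, Thbs1, Thbs3 and Thbs4 reached the minimum of 10 only through treated libraries, so this count says nothing for the class. With the minimum at 1, all 10 genes were tested, 5 rose and 1 fell over a background of 41.7%, and their median log2 difference was 1.09, against 0.02 over all tested genes. Tnc, among those that rose, needed treated libraries to reach even that minimum. Without overlap of libraries, 7 of the 10 genes were higher and 2 lower, where 29.2% and 33.4% of the genes tested at the minimum of 10 were. Tnc and Comp are not in that set. Cilp, Thbs1, Thbs3 and Thbs4 entered it only through treated libraries, so this count says nothing for the class either.

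Among the fibroblast glycoproteins, Postn stood at 206, 278 and 222 in treated knockout hearts, against 38.8, 34.4 and 44.6 in untreated knockout hearts, with a wide gap between the groups. The log2 difference was 2.55 ± 0.41 (limma, adjusted p = 0.00021). Cilp stood at 37.6, 44.0 and 33.2 in treated hearts, against 7.61, 6.89 and 7.18 in untreated hearts (2.25 ± 0.41, adjusted p = 0.00053). Tnc stood at 6.32, 10.6 and 8.27 in treated hearts, against 0.966, 1.35 and 1.38 in untreated hearts, where it rests on 8 to 11 reads per library. At the lower minimum its log2 difference was 2.05 ± 0.39 (adjusted p = 0.00086). For all 3 genes every treated library was above every untreated one. The standard errors come from a spread shared by the 3 groups, which treated wild-type replicate 3 widens: without it the standard error of Postn was 0.13 and the difference was 2.55 as before.

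Among the thrombospondins, Thbs3 stood at 13.0, 15.8 and 15.2 in treated knockout hearts, against 4.95, 4.43 and 5.80 in untreated knockout hearts. The groups are separate, with a log2 difference of 1.37 ± 0.20 (limma, adjusted p = 9.3e-05). Thbs4 stood at 10.5, 12.7 and 12.9 in treated hearts, against 3.62, 3.69 and 2.49 in untreated hearts. Its groups are separate too, at 1.62 ± 0.60 (adjusted p = 0.036), but the call was lost when any one of the 6 knockout libraries was left out (adjusted p up to 0.098), with a pseudocount of 10 (0.73, adjusted p = 0.19), with quantile scaling (adjusted p = 0.068), in limma without a trend (0.054) and with edgeR on the recovered reads (0.12). Without wild-type replicate 3 its adjusted p was 2e-06. Thbs1 stood at 14.5, 23.0 and 14.5 in treated hearts, against 7.13, 8.98 and 12.4 in untreated hearts, which did not overlap, and had 0.80 ± 0.36 (adjusted p = 0.077). It passed without wild-type replicate 3 (adjusted p = 0.0026) or replicate 1 (0.042) and with only the 2 knockout groups in the fit (0.0037). Thbs2 overlapped, with 25.4, 18.7 and 21.8 in treated hearts, against 15.6, 20.0 and 17.1 in untreated hearts. Its log2 difference was 0.30 ± 0.22 (adjusted p = 0.26, and 0.039 without wild-type replicate 3). Comp went the other way in level, with 2.28, 2.61 and 1.95 in treated hearts, against 4.35, 2.71 and 3.87 in untreated hearts. At the lower minimum it had -0.49 ± 0.59 (adjusted p = 0.53), and passed without wild-type replicate 3 (adjusted p = 0.048).

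The CCN genes parted. Cyr61, which encodes a secreted integrin ligand and is an early gene of growth factor and stretch signals, stood at 25.5, 30.5 and 21.6 in treated knockout hearts, against 47.2, 46.0 and 43.1 in untreated knockout hearts. Every treated library was lower than every untreated one, and the log2 difference was -0.80 ± 0.17 (limma, adjusted p = 0.0013). Ctgf, a mediator of fibrosis downstream of TGF-β, stood at 56.4, 73.9 and 62.7 in treated hearts, against 52.9, 42.6 and 52.6 in untreated hearts. Its groups did not overlap, by a narrow margin, and the difference of 0.37 ± 0.32 (adjusted p = 0.35) passed without wild-type replicate 3 (adjusted p = 0.0094) or with only the knockout groups in the fit (0.010). Counted without that replicate, 7 of the 8 genes rose and 1 fell, over a background of 54.3% of 8475 genes tested. Cilp, Thbs1, Thbs3 and Thbs4 are again among them only through treated libraries, so this count too says nothing for the class.

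**Figure D4:**
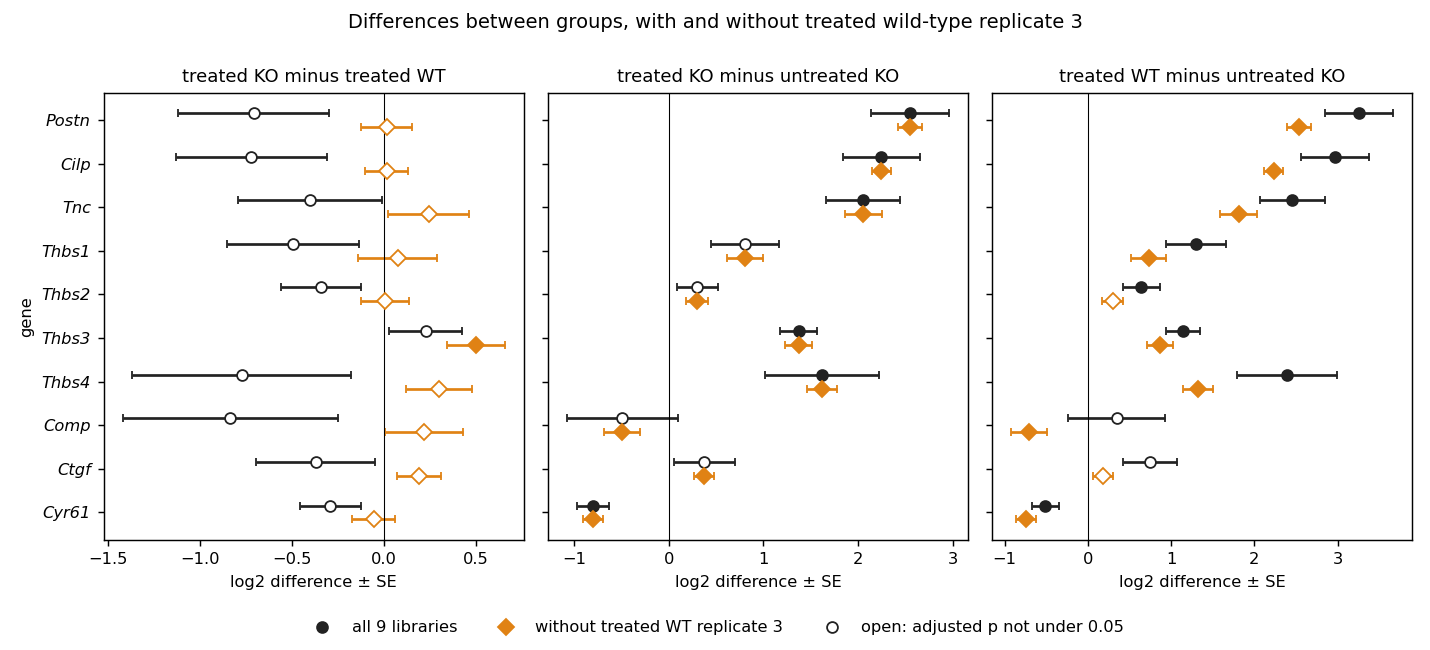
Log2 differences with standard errors for the 10 genes in the 3 comparisons, with all 9 libraries (black) and without treated wild-type replicate 3 (orange), filled where the limma adjusted p was under 0.05. Tnc and Comp are from the fit with the minimum of 1. In the left panel most values move to the right of or onto 0 without that library, and in the middle panel the values stay in place and the errors shrink.

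The third comparison sets treated wild-type hearts against untreated knockout hearts, which differ in genotype, drug and pump at once, and these cannot be told apart. It shares its untreated libraries with the second comparison. Postn, Cilp, Thbs4, Thbs1, Thbs3 and Thbs2 rose and Cyr61 fell in treated wild-type hearts, over a background of 33.2% of tested genes called. Cilp, Thbs1, Thbs3 and Thbs4 again reached the minimum only through treated libraries. With the minimum at 1, 7 of all 10 genes rose and 1 fell over a background of 26.8%. Tnc, among those that rose, reached that minimum only with treated libraries. Without replicate 3 of the treated wild type 5 of 8 rose and 1 fell over a background of 26.6%. Postn, at 198, 270 and 1043 in treated wild-type hearts, against 38.8, 34.4 and 44.6 in untreated knockout hearts, had a log2 difference of 3.26 ± 0.41 (limma, adjusted p = 7.5e-05), and 2.53 ± 0.14 without replicate 3. Cilp had 2.97 ± 0.41, and 2.23 ± 0.12 without it. Thbs4 had 2.39 ± 0.60, and 1.32 ± 0.18 without it, and Thbs3 had 1.14 ± 0.20, and 0.87 ± 0.16 without it. These 4 genes passed in both forms, as did Tnc at the lower minimum with 2.46 ± 0.39, and 1.81 ± 0.22 without replicate 3.

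Other genes of the third comparison changed their call with single libraries or settings. Thbs1 had 1.30 ± 0.36 (limma, adjusted p = 0.014), 0.73 (0.021) without replicate 3, and 1.13 (0.063) without untreated knockout replicate 1. Thbs2 had 0.64 ± 0.22 (adjusted p = 0.037), and 0.30 (0.10) without replicate 3, and missed the threshold also without any one of the untreated libraries (adjusted p up to 0.12). It missed it with DESeq2 (adjusted p = 0.077), with length and GC content in the fit (0.070), with quantile scaling (0.052) and in limma without a trend (0.055) as well. Cyr61 stood at 25.4, 28.0 and 44.2 in treated wild-type hearts, against 47.2, 46.0 and 43.1 in untreated knockout hearts, and replicate 3 lies within the untreated range. Its difference of -0.51 ± 0.17 (adjusted p = 0.030) missed the threshold without wild-type replicate 1 or 2 or any one untreated library (adjusted p up to 0.12), and was -0.75 without replicate 3. Ctgf had 0.74 ± 0.32 (adjusted p = 0.093), 0.18 without replicate 3, and 1.09 (0.016) without replicate 1. Comp had 0.35 ± 0.59 (adjusted p = 0.70) with all libraries and -0.71 ± 0.21 (adjusted p = 0.028) without replicate 3, so its direction turned on that library.

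Several cell type markers moved with treatment beside these genes. All 7 atrial markers were lower in treated than in untreated knockout hearts (limma), and their summed level was 102 to 134 in treated knockout, 68.1 to 871 in treated wild-type and 1200 to 2681 in untreated knockout hearts. All atrial markers but Nppa needed the untreated libraries to reach the minimum, so the count of 7 lower says nothing for the list. In level, each atrial marker was lower in every treated knockout library than in any untreated one. In bulk RNA fewer cells of a type and less RNA per cell cannot be told apart. Of 12 tested fibroblast markers 8 were higher in treated than in untreated knockout hearts, where 51.4% of all tested genes were called in either direction. The fibroblast sums were 2129 to 2149 in treated knockout, 1804 to 1882 in treated wild-type and 1812 to 1891 in untreated knockout hearts. Gsn weighs on these sums most and went against most of the list. It stood at 930 to 948 in treated knockout hearts, against 999 to 1064 in untreated knockout hearts. Among the fibroblast markers Pi16 rose by 1.43 ± 0.09 and Mfap5 by 1.89 ± 0.23 on the log2 scale (limma, adjusted p = 5.5e-07 and 2.6e-05). Pdgfra stood at 39.4 to 42.2 in treated knockout hearts, against 35.9 to 38.6 in untreated knockout hearts. Meox1, a transcription factor of activated fibroblasts, stood at 42.7, 56.1 and 45.3 in treated knockout hearts, 31.6, 38.3 and 48.2 in treated wild-type hearts and 11.6, 14.3 and 14.4 in untreated knockout hearts. It rose by 1.76 ± 0.14 between the knockout groups (adjusted p = 1.2e-06). Lrrc15, another gene of that list, fell by 0.97 there (adjusted p = 0.00049).

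Of the activated fibroblast list 10 genes were listed and 5 tested. In treated against untreated knockout hearts 3 were higher and 1 lower, over the background of 51.4% of tested genes called. Ltbp2, tested and not called, reached the minimum only through treated libraries. The sums of that list were 281 to 317 in treated knockout, 321 to 511 in treated wild-type and 150 to 166 in untreated knockout hearts. Smooth muscle and pericyte markers were higher for 7 of 9 and endothelial markers for 9 of 10, over the same background. Macrophage markers were higher for 3 of 6, a share near the background, and none was lower in these 3 lists. Among the macrophage markers that were higher, Itgam reached the minimum only through treated libraries. The smooth muscle sums were 2181 to 2435 in treated knockout, 2353 to 2761 in treated wild-type and 1859 to 2042 in untreated knockout hearts. The endothelial sums were 1893 to 2276 in treated knockout, 1502 to 1625 in treated wild-type and 1049 to 1156 in untreated knockout hearts. Of the 10 endothelial markers 7 were higher in treated knockout than in treated wild-type hearts, over the background of 27.8%. Sox17, an endothelial marker, reached the minimum only through treated knockout libraries. With the minimum at 1, 6 of the 10 were higher than in treated wild-type hearts, over a background of 17.4%. Against untreated knockout hearts 9 of the 10 were higher at that minimum, over 41.7%. Macrophage sums were 362 to 410 in treated knockout, 304 to 437 in treated wild-type and 261 to 360 in untreated knockout hearts. The 12 cell cycle genes summed to 141 to 265, 144 to 204 and 18.8 to 24.0 in the same order of groups, and those tested reached the minimum only through treated libraries, so no count is given for them. Of the platelet list, a source of Thbs1, 3 of 7 genes were listed, and their sums were 14.0 to 19.3 in treated knockout, 11.7 to 12.6 in treated wild-type and 11.7 to 14.9 in untreated knockout hearts. The tendon, cartilage and valve list summed to 21.0 to 27.4 in treated knockout, 15.9 to 48.2 in treated wild-type and 30.9 to 36.6 in untreated knockout hearts. The share of reads from mitochondrial genes was 38.2% to 42.5% in treated knockout, 36.7% to 37.3% in treated wild-type and 33.9% to 34.6% in untreated knockout hearts. The part of this share and of these cell types in the results on the 10 genes was not tested.

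**Figure D5:**
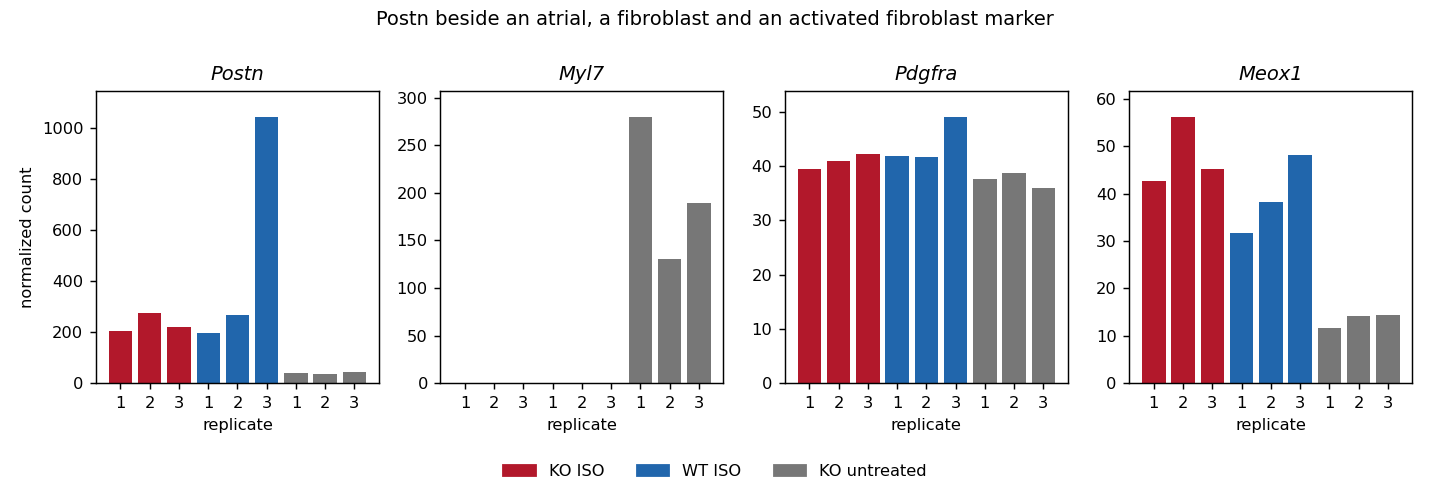
Normalized counts of Postn, the atrial marker Myl7, the fibroblast marker Pdgfra and the activated fibroblast marker Meox1 in each of the 9 libraries, with bars in the order treated knockout, treated wild type, untreated knockout and the replicate number under each bar. Myl7 is near 0 in all 6 treated libraries, Pdgfra lies between 35.9 and 48.9 throughout, and Postn and Meox1 are higher in treated libraries. Pdgfra and Meox1 do not stand for their lists. Of 12 tested fibroblast markers 8 were higher in treated than in untreated knockout hearts (limma, background 51.4%), and the activated fibroblast gene Lrrc15 was lower.

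Genes for other matrix proteins were counted beside them. Of 17 tested genes for collagens and their cross-linking, 16 were higher in treated than in untreated knockout hearts and none was lower, over the same background of 51.4%. Of the 17, Lox and Col16a1 reached the minimum only through treated libraries. Fbn1, the fibrillin of elastic fibres, rose by 1.39 ± 0.14 and Loxl2, a collagen cross-linking oxidase, by 1.24 ± 0.16 (limma, adjusted p = 5.4e-06 and 3.9e-05). Between treated knockout and treated wild-type hearts 0 of 17 were called by limma, with 3 at an unadjusted p under 0.05. With edgeR 0 were called and 5 had an unadjusted p under 0.05, and with DESeq2 1 was lower. The median there was -0.28, and 0.09 without wild-type replicate 3. Of 22 further matricellular genes 19 were listed and 13 tested. In treated against untreated knockout hearts 8 rose and 1 fell, over the background of 51.4%. Sparc, a collagen-binding glycoprotein, stood at 883, 1028 and 909 in treated knockout hearts, against 306, 335 and 381 in untreated knockout hearts (log2 difference 1.46 ± 0.13). Its relative Sparcl1 rose by 1.07 ± 0.07, Fbln2 (fibulin-2) by 1.29 ± 0.12 and Igfbp7 by 1.24 ± 0.15. Against treated wild-type hearts 2 of the 13 were higher in treated knockout hearts, a share below the background of 27.8%: Tnxb (tenascin-X) by 0.39 ± 0.08 and Vtn (vitronectin) by 0.39 ± 0.10 (adjusted p = 0.0053 and 0.013). The call of Vtn was lost once length and GC content entered the fit (0.26, adjusted p = 0.088).

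Of 20 receptors for these ligands 19 were listed and 15 tested. In treated knockout against treated wild-type hearts 1 was higher and 6 were lower, over the background of 27.8% of tested genes called. Itgb1, the β1 integrin subunit through which most of these ligands signal, stood at 389, 376 and 396 in treated knockout hearts, against 456, 486 and 507 in treated wild-type hearts. These groups do not overlap, and the log2 difference was -0.32 ± 0.07 (limma, adjusted p = 0.0044). Itga9, a partner subunit that binds tenascin-C, had -0.47 ± 0.09 (adjusted p = 0.0030), Tlr4, an innate immune receptor reported to bind tenascin-C, -0.52 ± 0.10 (0.0025), and Igf2r -0.42 ± 0.08 (0.0039). In treated against untreated knockout hearts 4 receptors rose and 4 fell, a share near the background of 51.4%. Cacna2d1, a calcium channel subunit that binds thrombospondins, stood at 105, 81.5 and 119 in treated knockout hearts, against 212, 234 and 201 in untreated knockout hearts, and fell by 1.09 on the log2 scale. Itga9 fell by 0.67 in the same comparison. Kdr, the VEGF receptor of endothelium, rose by 0.76 ± 0.09, and Itga5, the fibronectin receptor subunit, by 0.44 ± 0.09.

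Genes of the Hippo pathway and of mechanical signalling, which includes known regulators of Ctgf and Cyr61, had 23 of 24 listed and 20 tested. Against treated wild-type hearts 0 were higher and 3 lower in treated knockout hearts, below the background of 27.8%. Tead1, a TEAD factor, stood at 46.5, 34.0 and 53.2 in treated knockout hearts, 116, 105 and 124 in treated wild-type hearts and 121, 125 and 126 in untreated knockout hearts. Treated knockout hearts are apart from both other groups, at -1.37 ± 0.12 against treated wild-type and -1.48 ± 0.12 against untreated knockout hearts (limma, adjusted p = 4.3e-05 and 1.8e-06). The table lists the symbol Tead1 under a second ID that is absent from the annotation, so its reads may be split. Nt5e, an ectonucleotidase, had -0.37 ± 0.09 and Arhgef17 -0.33 ± 0.09 against treated wild-type hearts (adjusted p = 0.011 and 0.014), and Nt5e was lost with DESeq2 (adjusted p = 0.062). Between the knockout groups 5 rose and 6 fell, near the background of 51.4%, among them Axl, a receptor kinase (0.73 ± 0.08), and Wwtr1, which encodes TAZ (0.50 ± 0.08).

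The TGF-β list had 20 of 22 genes listed and 17 tested. In treated knockout against treated wild-type hearts 2 were higher and 1 lower, below the background of 27.8%. Smad7, the inhibitory SMAD, stood at 16.5, 16.2 and 18.3 in treated knockout hearts, against 13.0, 9.92 and 11.3 in treated wild-type hearts, without overlap (0.54 ± 0.13, limma, adjusted p = 0.0086). Smad4, the common SMAD, had -0.30 ± 0.08 (adjusted p = 0.016), a call lost once length and GC content entered the fit (adjusted p = 0.054). Between the knockout groups 7 rose and 5 fell, over the background of 51.4%. Tgfb1, the ligand, stood at 20.7, 37.2 and 23.9 in treated knockout hearts, against 13.0, 16.4 and 15.9 in untreated knockout hearts (0.78 ± 0.17, adjusted p = 0.0018). Bmp1, a procollagen protease, rose by 0.78 ± 0.13 and Ltbp4, a latent TGF-β binding protein, by 0.71 ± 0.08. Il11ra1, the interleukin-11 receptor, fell by 0.50.

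For 5 of the genes, the tested genes whose log2 values followed them most closely over the 9 libraries were ranked by Pearson's r, as a description. The libraries share treatment groups, and replicate 3 of treated wild-type hearts weighs heavily in each r. Postn was followed by Col3a1 (r = 0.997), Cilp (0.995), Fstl1 (0.993) and Col8a1 (0.992), and Thbs4 by Fibin (0.987), Col1a2 (0.986), Col1a1 (0.984) and Bmp2k (0.980). Comp was followed by Clu (0.953), Txndc5 (0.937), Itgb5 (0.930) and Abi3bp (0.921). Ctgf was followed by Sfrp2 (0.973), Fbln5 (0.973), Mpeg1 (0.966) and Csrp2 (0.954), and Cyr61 by Rasl11b (0.971), Nuak1 (0.944), Nppa (0.942) and Etv5 (0.940). Without replicate 3, over 8 libraries, Fstl1 was the one gene of these 20 that stayed among the closest 4 of its gene (Postn, r = 0.996). The closest to Thbs4 was then H2afz (0.989), to Comp Tmem176b (0.967), to Ctgf Baz2a (0.971) and to Cyr61 Wipf3 (0.972).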

How the data were processed

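Total RNA of heart tissue was purified over columns after TRIzol extraction and sequenced from TruSeq libraries, per the labels. The submitters' processing notes name cutadapt, RSEM 1.17, limma and the build GRCm38. For the aligner, its settings, strand use and the rule that left genes out, the sources used here give no statement. The table deposited by the authors holds normalized signal: expected counts scaled to library size, 1 value per gene and library. Up to 200 reads, 100% of values were whole reads times 1 step per library, within 0.02 reads, which gave back 6933879 to 12187701 reads per library. Intervals of log2 differences come from the limma fit, and the lowest values rest on few reads, so counting error limits them.

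Values were taken as log2(value + 1), so differences of low genes are understated. The 8543 genes that reached 10 in 3 or more of 9 libraries were fitted with limma 3.58.1 (R 4.3.3) with a trend, 1 mean per group and a spread shared by 3 groups. Tests were two-sided, adjusted by Benjamini-Hochberg over all genes tested, with a threshold of 0.05. Tnc and Comp lay below that minimum and were tested with a minimum of 1 (13369 genes). Results are also given for the alternatives named in the text, edgeR 4.0.16 and DESeq2 1.42.0 on the recovered reads among them. The 2 further fits of Tnc and Comp and the ranking without treated wild-type replicate 3 were chosen after seeing the data. Transcript length and GC content were those of the longest coding transcript in GENCODE M21, in which 13385 IDs were found. Promoter windows came from RefSeq. The pipeline was tested on simulated counts.

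The 10 genes, the gene lists and the naming rule were chosen with earlier results of these data known. The rule names the 10 genes, Oma1, up to 4 tested genes per list and comparison by smallest unadjusted p, and for 5 genes the 4 most alike. Beside the rule, Pdgfra, Mmp2, Gsn, the atrial markers and Cthrc1, Fmod, Lox and the other genes high in treated wild-type replicate 3 were named after their values were seen.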

Additional observations from a re-analysis of the deposited data

How the results depend on the processing

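Counts of the 8 tested genes called moved with single libraries. Leaving out 1 library at a time gave 0 to 1 higher and 0 to 1 lower in treated knockout against treated wild-type hearts, 3 to 7 higher and 1 lower in treated against untreated knockout hearts, and 4 to 7 higher and 0 to 1 lower in treated wild-type against untreated knockout hearts. In the last, 0 were lower with edgeR and 0 after the length and GC correction (Cyr61 -0.47, adjusted p = 0.058, and -0.45, adjusted p = 0.064). When treated wild-type replicate 3 was left out, the difference between treated knockout and treated wild-type hearts changed sign for Postn (0.015, range over libraries left out -1.18 to 0.015), Cilp (0.015, -1.13 to 0.015), Thbs1 (0.075, -0.87 to 0.075), Thbs2 (0.0050, -0.53 to 0.0050), Thbs4 (0.30, -1.32 to 0.30), Ctgf (0.19, -0.71 to 0.19), Tnc (0.24) and Comp (0.22), as did Comp in treated wild-type against untreated knockout hearts (-0.71). Of all tested genes 2379 were called between the treated groups, 1574 after the length and GC correction and 1336 without treated knockout replicate 2. The replicate numbers did not pair the libraries: same-numbered libraries correlated at -0.14 to 0.18 after removal of the group means. With the replicate number as a block, 5 genes were higher in treated than in untreated knockout hearts, Thbs1 having passed (0.80, adjusted p = 0.039), and no other call of the 8 genes changed. DESeq2 gave no adjusted p for Thbs4. Scaling by TMM, quantiles or cyclic loess moved the median of all genes by less than 0.1 on the log2 scale. Quantile scaling ended the calls of Thbs4 in treated against untreated knockout hearts (adjusted p = 0.068) and of Thbs2 in treated wild-type against untreated knockout hearts (0.052). Depth limits Tnc in untreated knockout hearts (8 to 11 reads per library) and Comp (16 reads at the lowest).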
